A study of Homo sapiens with 12 samples.

Results

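The 7 human genes that encode the FOS and JUN subunits of AP-1 were followed through knockdown of FOSL1 and JUN and through olaparib treatment in BT549 cells. Members were the rows of the deposited count table whose symbol was FOS, FOSB, FOSL1, FOSL2, JUN, JUNB or JUND, so 7 of 26995 rows with a symbol. These are 4 FOS genes and 3 JUN genes. All 7 had more than 1 CPM (a count scaled to the size of its library) in all 12 libraries and all 7 were tested, with 12118 genes tested in total. The study asked how blocking FRA-1, the product of FOSL1, bears on the response of triple-negative breast cancer cells to olaparib, an inhibitor of the DNA repair enzymes PARP1 and PARP2.

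AP-1 is a transcription factor made of a pair of subunits, held together by a leucine zipper, that grips DNA through a basic region. FOS proteins do not form stable pairs with each other and need a JUN partner, whereas JUN proteins can also pair among themselves. FOS and FOSB carry strong activation domains that FRA-1 and FRA-2 lack, and many of these genes respond within minutes to growth factors and stress. In triple-negative and other mesenchymal carcinoma cells FRA-1 is known as an abundant FOS protein tied to migration and invasion.

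All libraries came from 1 established cell line, BT549, a triple-negative breast carcinoma line grown in serum-containing RPMI medium. Knockdown cells were transfected with ON-TARGETplus SMARTpool siRNAs against FOSL1 together with a SMARTpool against JUN, and were given olaparib or DMSO, the solvent. Control cells carried a pool of non-targeting siRNAs and were likewise given olaparib or DMSO. Treatment lasted 48 h and each of the 4 groups held 3 libraries. FOSL1 and JUN were never silenced alone. The sources used here give neither the amounts of siRNA nor the olaparib dose. Nothing in them says that the libraries of a group were separate cultures, so p-values measure the spread between these libraries, which may be technical.

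Library totals ran from 13763179 to 39715900 counts. All 7 mesenchymal markers listed for BT549 had a median above 10 CPM, with VIM at 2833 CPM. Of 9 listed luminal and epithelial genes, ESR1, PGR, EPCAM and FOXA1 had a median of 0. ERBB2, GATA3 and KRT18 went the other way, with medians of 110, 29.7 and 26.7 CPM, and CDH1 and KRT8 had 0.752 and 1.61 CPM. Summed blood markers reached at most 2.71 CPM and summed endothelial markers at most 0.0594 CPM. Levels below are in RPKM (CPM per kilobase of the deposited gene length, with TMM-scaled library sizes), which allows comparison between genes. Log2 fold changes and adjusted p-values are from edgeR's quasi-likelihood test over all genes, called below 0.05. The pairwise comparisons share groups with each other.

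The promoters of FOS, FOSB, FOSL2 and JUN are shown because FOS, FOSB and FOSL2 were higher with olaparib in both arms and JUN was not. RefSeq's GRCh38.p14 table gave a window for 6 of the 7 members, from 250 bases before the start of the gene to 50 after it. The windows are chr14:75278578-75278877 on the plus strand for FOS, chr19:45467746-45468045 on the plus strand for FOSB, chr2:28392608-28392907 on the plus strand for FOSL2 and chr1:58783998-58784297 on the minus strand for JUN. Each is written 5′ to 3′ on the strand of its gene. Capitals mark matches to 4 searched motifs, described after the sequences.
FOS: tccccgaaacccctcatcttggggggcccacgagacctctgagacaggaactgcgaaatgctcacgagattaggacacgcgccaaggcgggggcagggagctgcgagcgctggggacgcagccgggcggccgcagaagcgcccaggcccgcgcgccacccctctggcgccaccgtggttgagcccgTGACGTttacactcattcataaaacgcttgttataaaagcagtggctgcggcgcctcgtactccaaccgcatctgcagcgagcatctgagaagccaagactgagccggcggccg
FOSB: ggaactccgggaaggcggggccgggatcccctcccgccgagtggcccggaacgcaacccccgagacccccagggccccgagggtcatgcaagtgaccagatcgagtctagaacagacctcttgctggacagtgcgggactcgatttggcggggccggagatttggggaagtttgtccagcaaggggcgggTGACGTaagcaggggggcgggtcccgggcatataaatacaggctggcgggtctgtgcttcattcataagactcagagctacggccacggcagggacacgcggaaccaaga
FOSL2: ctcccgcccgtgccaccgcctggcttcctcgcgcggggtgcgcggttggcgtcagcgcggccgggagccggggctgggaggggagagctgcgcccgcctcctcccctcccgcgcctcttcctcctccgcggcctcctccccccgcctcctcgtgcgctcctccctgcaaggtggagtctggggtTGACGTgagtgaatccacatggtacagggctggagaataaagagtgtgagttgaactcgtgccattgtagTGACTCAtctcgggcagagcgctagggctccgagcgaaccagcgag
JUN: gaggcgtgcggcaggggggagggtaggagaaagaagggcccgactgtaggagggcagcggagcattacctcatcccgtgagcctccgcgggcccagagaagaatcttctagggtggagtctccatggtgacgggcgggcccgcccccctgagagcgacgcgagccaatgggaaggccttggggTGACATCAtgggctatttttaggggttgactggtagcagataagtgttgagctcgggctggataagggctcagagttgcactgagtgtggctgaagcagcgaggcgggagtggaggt

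The motifs were TGACTCA, the classical AP-1 element, TGACGTCA, the cyclic AMP response element, TGACATCA, the variant long described at the JUN promoter, and TGACGT, which also lies inside TGACGTCA. Both strands were searched. TGACGT was found in the FOS, FOSB and FOSL2 windows, with its first base at -64, -60 and -66 from the gene start. FOSL2 also held TGACTCA from base 5 of the transcribed side. The JUN window held TGACATCA from -67. Of the windows not printed, JUND held TGACGTCA from -200 and a reverse match of TGACGT from -87, and JUNB held none of the 4. Among 35116 promoter windows of the same length, 4.95% held TGACTCA, 1.85% TGACGTCA, 2.61% TGACATCA and 7.98% TGACGT. These matches describe letters in a window and say nothing on binding.

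The order of the members by level per length differed between groups. In knockdown cells with olaparib JUNB (54.3 ± 17.2 RPKM, SD, n = 3 here and below), JUND and FOSL2 led with overlapping ranges, JUN and FOSL1 overlapped next, and FOS and FOSB came last. In knockdown cells with DMSO the order was JUND and JUNB with overlapping ranges, FOSL2, JUN, FOSL1, FOS and FOSB. In control cells with olaparib FOSL1 led at 71.7 ± 5.66 RPKM, then FOSL2 and JUNB with overlapping ranges, JUN, JUND, FOS and FOSB. In control cells with DMSO JUN led at 49.1 ± 3.02 RPKM, above FOSL1 at 40.8 ± 1.81 and JUND at 38.1 ± 2.58 RPKM, whose ranges overlapped. JUNB at 30.8 ± 0.655 and FOSL2 at 30.4 ± 0.610 RPKM followed there, again with overlapping ranges. FOS, the founding member, stood far below them at 1.87 ± 0.0766 RPKM, and FOSB at 0.779 ± 0.144 RPKM.

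**Figure D1:**
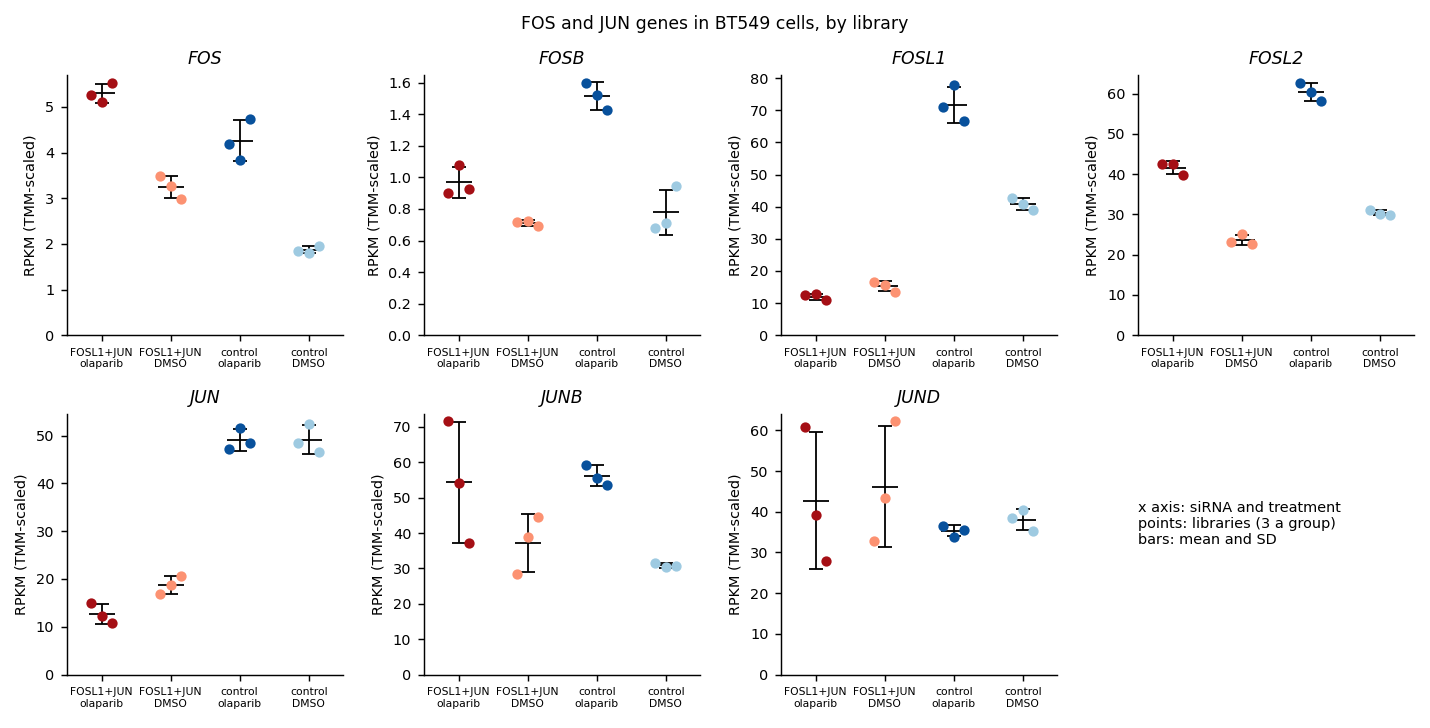
TMM-scaled RPKM of each of the 7 genes (vertical axes, from 0) in every library, with knockdown groups left of control groups. Points are libraries and bars are group means with SD (n = 3). FOSL1 and JUN are low in all 6 knockdown libraries, and the libraries of each knockdown group lie farthest apart for JUNB and JUND.

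FOSL1, 1 of the 2 siRNA targets, was lowest where control cells held most of it. It stood at 12.4, 12.7 and 10.9 RPKM in knockdown cells with olaparib and at 16.6, 15.7 and 13.6 RPKM in knockdown cells with DMSO. In control cells it stood at 70.9, 77.8 and 66.5 RPKM with olaparib and at 42.7, 40.7 and 39.1 RPKM with DMSO. All 6 knockdown libraries lay below all 6 control libraries, and olaparib libraries lay below DMSO libraries in knockdown cells but above them in control cells. FOSL1 fell to 37.2% of control in DMSO (log2 -1.43, SE 0.0799, edgeR adjusted p = 8.51e-11) and to 16.9% of control in olaparib (log2 -2.57, SE 0.0808, edgeR adjusted p = 3.13e-14). With olaparib it fell to 79.9% of the DMSO level in knockdown cells (log2 -0.32, SE 0.0847, edgeR adjusted p = 0.00397) and rose 1.76-fold in control cells (log2 0.81, SE 0.0740, edgeR adjusted p = 5.81e-08). The olaparib effect thus differed between the arms by -1.14 on the log2 scale (SE 0.112, edgeR adjusted p = 1.89e-05), and it passed in 21 of 21 alternatives.

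JUN, the other target and the archetypal partner of FOS proteins, showed no detected olaparib effect in control cells. Its level was 14.96, 12.2 and 10.8 RPKM in knockdown cells with olaparib and 16.9, 18.7 and 20.7 RPKM in knockdown cells with DMSO. Control cells held 47.1, 51.6 and 48.4 RPKM with olaparib and 48.5, 52.4 and 46.5 RPKM with DMSO. The control groups overlapped, and in knockdown cells every olaparib library lay below every DMSO library. JUN fell to 38.4% of control in DMSO (log2 -1.38, SE 0.0968, edgeR adjusted p = 7.92e-08) and to 25.8% in olaparib (log2 -1.95, SE 0.0997, edgeR adjusted p = 1.84e-09). With olaparib JUN fell by 0.58 on the log2 scale in knockdown cells (SE 0.1007, edgeR adjusted p = 0.000335), and its log2 fold change in control cells was -0.00318 (95% interval -0.20 to 0.20, edgeR adjusted p = 0.98). The difference between the arms was -0.57 (SE 0.137, edgeR adjusted p = 0.0267), but it did not pass with no filter on low counts (edgeR adjusted p = 0.0547), with GC content offsets (0.0655), or without any 1 of 7 libraries (0.0511 to 0.0794). Those libraries were replicate 2 of knockdown cells with olaparib, replicate 2 of knockdown cells with DMSO, all 3 of control cells with olaparib, and replicates 1 and 3 of control cells with DMSO.

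FOSL2, which encodes FRA-2, was lower with knockdown and higher with olaparib. It stood at 42.5, 42.5 and 39.7 RPKM in knockdown cells with olaparib and at 23.2, 25.03 and 22.7 RPKM in knockdown cells with DMSO. Control cells held 62.7, 60.3 and 58.2 RPKM with olaparib and 31.1, 30.1 and 29.9 RPKM with DMSO. No group overlapped another. FOSL2 fell to 77.8% of control in DMSO (log2 -0.36, SE 0.0525, edgeR adjusted p = 2.71e-05) and to 68.9% in olaparib (log2 -0.54, SE 0.0507, edgeR adjusted p = 8.86e-08). With olaparib it rose 1.76-fold in knockdown cells (log2 0.82, SE 0.0519, edgeR adjusted p = 5.90e-10) and 1.99-fold in control cells (log2 0.99, SE 0.0517, edgeR adjusted p = 2.34e-11). The difference between the arms was -0.18 (95% interval -0.33 to -0.02, edgeR adjusted p = 0.159).

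FOS, the product that gave the family its name, was the untargeted FOS gene that was higher with knockdown. It stood at 5.26, 5.10 and 5.52 RPKM in knockdown cells with olaparib and at 3.49, 3.26 and 2.99 RPKM in knockdown cells with DMSO. Control cells held 4.20, 3.85 and 4.74 RPKM with olaparib and 1.84, 1.81 and 1.95 RPKM with DMSO. No group overlapped another, and FOS counts ran from 57 to 440 per library. FOS rose 1.72-fold with knockdown in DMSO (log2 0.78, SE 0.122, edgeR adjusted p = 6.02e-05). In olaparib the rise was 1.23-fold (log2 0.30, SE 0.0987, edgeR adjusted p = 0.0236), and that call was lost with DESeq2 (adjusted p = 0.0679), without replicate 3 of knockdown cells with olaparib (edgeR adjusted p = 0.0630) and without replicate 1 or 2 of control cells with olaparib (edgeR adjusted p = 0.0694 and 0.112). With olaparib FOS rose 1.64-fold in knockdown cells (log2 0.71, SE 0.1004, edgeR adjusted p = 1.24e-05) and 2.30-fold in control cells (log2 1.20, SE 0.119, edgeR adjusted p = 1.76e-07). The difference between the arms, -0.49, did not pass (95% interval -0.82 to -0.16, edgeR adjusted p = 0.0751).

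FOSB, a second strong activator and the lowest member throughout, had 37 to 163 counts per library. It stood at 0.899, 1.08 and 0.927 RPKM in knockdown cells with olaparib and at 0.720, 0.725 and 0.691 RPKM in knockdown cells with DMSO. Control cells held 1.60, 1.52 and 1.43 RPKM with olaparib and 0.682, 0.710 and 0.944 RPKM with DMSO. The control libraries with olaparib were the highest of all, and the DMSO groups of both arms overlapped. FOSB fell to 65.6% of control in olaparib (log2 -0.61, SE 0.134, edgeR adjusted p = 0.00143), whereas in DMSO its log2 fold change was -0.14 (95% interval -0.48 to 0.20, edgeR adjusted p = 0.553). With olaparib it rose 1.40-fold in knockdown cells (log2 0.48, SE 0.147, edgeR adjusted p = 0.0114) and 1.93-fold in control cells (log2 0.95, SE 0.147, edgeR adjusted p = 3.78e-05). The call in knockdown cells was lost without replicate 2 of knockdown cells with olaparib, the deepest library (log2 0.36, edgeR adjusted p = 0.116). The difference between the arms was -0.47 (edgeR adjusted p = 0.194).

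JUNB, an immediate-early JUN protein, was higher with olaparib in control cells. It stood at 71.5, 54.3 and 37.1 RPKM in knockdown cells with olaparib and at 28.4, 38.9 and 44.5 RPKM in knockdown cells with DMSO. Control cells held 59.4, 55.6 and 53.7 RPKM with olaparib and 31.6, 30.3 and 30.6 RPKM with DMSO. The knockdown libraries of each group were spread widely and the control libraries lay close together. With olaparib its groups overlapped in knockdown cells (log2 0.53, 95% interval 0.02 to 1.05, edgeR adjusted p = 0.0833), and JUNB rose 1.82-fold in control cells (log2 0.87, SE 0.233, edgeR adjusted p = 0.0147). Knockdown gave log2 differences of 0.29 in DMSO (95% interval -0.25 to 0.82, edgeR adjusted p = 0.404) and -0.05 in olaparib (95% interval -0.56 to 0.46, edgeR adjusted p = 0.891).

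JUND, the JUN protein known for its steady expression in resting cells, was called in 0 of 6 contrasts by edgeR and by DESeq2, and 0 had an unadjusted p below 0.05. It stood at 60.9, 39.3 and 27.8 RPKM in knockdown cells with olaparib and at 32.9, 43.3 and 62.2 RPKM in knockdown cells with DMSO. Control cells held 36.6, 33.9 and 35.4 RPKM with olaparib and 38.5, 40.4 and 35.3 RPKM with DMSO. In both knockdown groups 1 library was high and another low, and they overlapped the control groups. Knockdown gave log2 differences of 0.29 in DMSO (95% interval -0.39 to 0.97, edgeR adjusted p = 0.508) and 0.27 in olaparib (95% interval -0.41 to 0.95, edgeR adjusted p = 0.519). Olaparib gave -0.13 in knockdown cells (95% interval -0.80 to 0.54) and -0.11 in control cells (95% interval -0.80 to 0.58). The upper bounds with knockdown correspond to 1.96-fold and 1.94-fold, so the 95% intervals do not exclude rises up to that size.

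The calls over the family include both siRNA targets. With knockdown in DMSO 4 of 7 members were called, 1 higher (FOS) and 3 lower (FOSL2 and both targets), where 29.9% of all genes were called (14.7% higher and 15.2% lower). With knockdown in olaparib 5 were called, 1 higher (FOS) and 4 lower (FOSB, FOSL2 and both targets), where 38.3% of all genes were called (19.0% higher and 19.3% lower). With olaparib 5 were called in knockdown cells, 3 higher and 2 lower (both targets), against 48.0% of all genes (24.1% higher and 24.0% lower), and 5 were called in control cells, all higher, against 46.8% of all genes (23.6% higher and 23.2% lower). Both members called for a difference between the arms were the siRNA targets, and both were lower, against 5.69% of all genes (2.84% higher and 2.85% lower). When libraries were scaled to their totals in place of TMM, the share of calls that were higher was 64.6% against 49.1% for knockdown in DMSO, 72.5% against 49.7% for knockdown in olaparib, 39.1% against 50.1% for olaparib in knockdown cells, 31.0% against 50.5% for olaparib in control cells and 69.6% against 49.9% for the difference between the arms. The median of all genes moved by 0.10 and -0.10 (log2) for knockdown in olaparib and for olaparib in control cells. No member's call changed under that scaling.

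**Figure D2:**
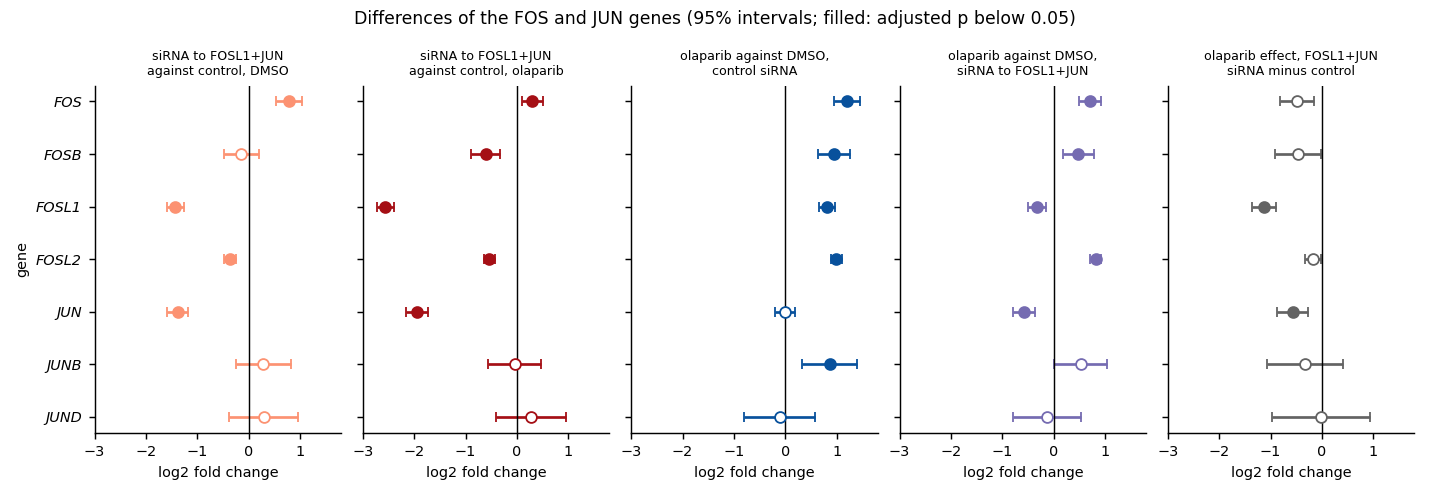
Log2 fold changes of the 7 genes (horizontal axes) with 95% intervals in each comparison, where filled points have an edgeR adjusted p below 0.05. FOSL1 and JUN lie left of 0 with knockdown, FOS lies to the right, and the intervals of JUNB and JUND with knockdown span 0.

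Combined treatment was also set against control cells with non-targeting siRNA and DMSO. In knockdown cells with olaparib 5 members were called against control cells with DMSO, 3 higher and 2 lower, where 47.2% of all genes were called (23.8% higher and 23.4% lower). FOS rose 2.82-fold (log2 1.49, edgeR adjusted p = 3.56e-09) and FOSL2 1.37-fold (log2 0.45, edgeR adjusted p = 7.61e-07). JUNB rose 1.76-fold (log2 0.82, edgeR adjusted p = 0.0181), a call lost without replicate 2 or 3 of control cells with DMSO (edgeR adjusted p = 0.0517 for both). FOSL1 fell to 29.7% and JUN to 25.7% of the control level. FOSB (log2 0.34, edgeR adjusted p = 0.0723, and 0.0212 without replicate 3 of control cells with DMSO) and JUND (log2 0.16, edgeR adjusted p = 0.685) did not pass.

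The gain of FOS transcript was small beside the loss of FOSL1 transcript. In DMSO the mean FOSL1 level was 25.6 RPKM lower in knockdown cells, and FOS was 1.38 RPKM higher, 5.40% of that loss, while FOSL2 differed by -6.75 RPKM. In olaparib FOSL1 was 59.7 RPKM lower, FOS was 1.04 RPKM higher, 1.73% of that loss, and FOSL2 differed by -18.8 RPKM. For JUN the loss was 30.4 RPKM in DMSO and 36.4 RPKM in olaparib. The mean JUND level differed by 8.08 and 7.37 RPKM and the mean JUNB level by 6.43 and -1.90 RPKM, none of which passed the test.

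Summed over the 4 FOS genes, the FOS pool was lower with knockdown in both treatments. It held 61.1, 61.4 and 57.1 RPKM in knockdown cells with olaparib and 44.0, 44.7 and 39.9 RPKM in knockdown cells with DMSO. Control cells held 139, 143 and 131 RPKM with olaparib and 76.3, 73.4 and 71.9 RPKM with DMSO. No group overlapped another. The mean was 43.4% of control in olaparib and 58.0% of control in DMSO, and olaparib gave a pool 1.40-fold as large in knockdown cells and 1.87-fold as large in control cells. The pool of knockdown cells with olaparib averaged 81.1% of that of control cells with DMSO, but the sign of that difference turned when gene length was left out (log2 0.0166 against -0.30). No test was run on the sums, which follow from the members tested above.

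Without FOSL1 the FOS pool was still lower with knockdown. The other 3 genes summed to 47.8 ± 1.43 RPKM in knockdown cells with olaparib and 27.6 ± 1.35 RPKM in knockdown cells with DMSO. In control cells the sums were 66.2 ± 2.12 RPKM with olaparib and 33.0 ± 0.507 RPKM with DMSO. These sums followed FOSL2, the most abundant of the 3. The share of FOSL2 in the FOS pool was 69.5% in knockdown cells with olaparib and 55.2% with DMSO, against 43.8% and 41.1% in control cells with olaparib and with DMSO. FOSL1 held 20.1% and 35.6% in those knockdown groups, against 52.0% and 55.3% in those control groups. FOS held 8.86% and 7.58% with knockdown, against 3.10% and 2.53% in control cells, and FOSB stayed between 1.06% and 1.66%. These shares depend on dividing by gene length. Without it FOSL2 held 82.1% and 72.1% in knockdown cells with olaparib and with DMSO, against 63.2% and 60.7% in control cells, and FOSL1 held 10.4% and 20.5% against 32.9% and 35.8%, so that FOSL2 led in every group. The share of FOS in knockdown cells with olaparib was then 5.67%.

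In RPKM the JUN pool overlapped between knockdown and control cells. It held 147, 106 and 75.7 RPKM in knockdown cells with olaparib and 78.2, 100.9 and 127 RPKM in knockdown cells with DMSO. Control cells held 143, 141 and 137 RPKM with olaparib and 119, 123 and 112 RPKM with DMSO. The means with knockdown were 78.0% of control in olaparib and 86.6% in DMSO, differences smaller than the range of the knockdown libraries. The overlap depends on dividing by gene length. Without it the log2 ratio was -0.57 in place of -0.36 in olaparib and -0.41 in place of -0.21 in DMSO. All knockdown libraries then lay below all control libraries of the same treatment. In control cells all olaparib libraries lay above all DMSO libraries, with a mean 1.19-fold as large. Within the pool JUN held 12.0% in knockdown cells with olaparib and 18.8% with DMSO, against 34.9% and 41.6% in control cells. JUNB held 49.6% and 36.6% with knockdown against 40.0% and 26.2%, and JUND 38.4% and 44.6% against 25.1% and 32.2%. Without division by gene length JUN held 19.4% and 28.8% in those knockdown groups against 48.7% and 55.5% in control cells, and in control cells with olaparib it then exceeded JUNB, which held 30.5%. The ratio of the FOS pool to the JUN pool was 0.583 and 0.439 in knockdown cells with olaparib and with DMSO, against 0.981 and 0.626 in control cells. It ran from 0.414 to 0.755 and from 0.313 to 0.562 in those knockdown groups, which overlapped each other. In each treatment all knockdown libraries lay below all control libraries. The ratio was not computed without division by gene length.

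**Figure D3:**
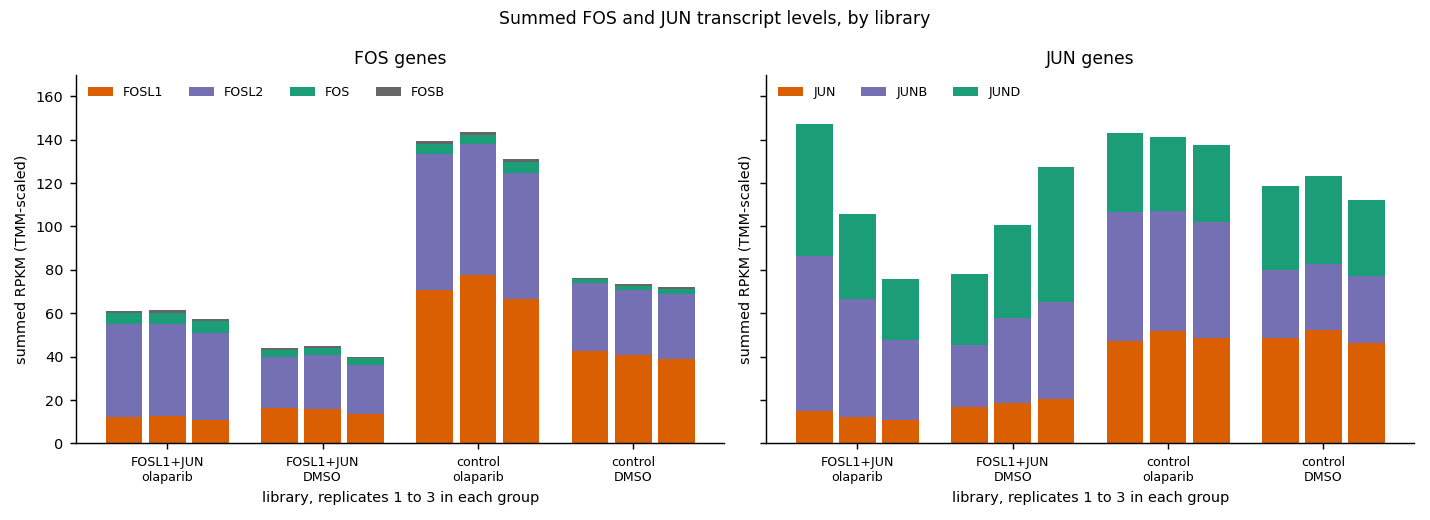
Stacked TMM-scaled RPKM of the 4 FOS genes and of the 3 JUN genes (vertical axes, from 0) in each library, knockdown groups left of control groups. The FOS stack reaches 39.9 to 61.4 RPKM in knockdown libraries and 71.9 to 143 RPKM in control libraries, while the JUN stack of knockdown libraries runs from 75.7 to 147 RPKM.

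The spread of JUNB and JUND was wide in both knockdown groups. Pooled over all 4 groups, control groups included, the within-group SD on the log2 scale was 0.37 for JUND and 0.29 for JUNB. These lay at percentiles 99.9 and 99.5 of genes of similar level, whose median was 0.0752. Their longest annotated transcripts have a GC content of 69.7% and 64.9%, at percentiles 99.7 and 96.4 of the genes tested. In knockdown cells with olaparib JUND deviated from its group mean by 0.59, -0.04 and -0.54 (log2) in replicates 1, 2 and 3, and the 1198 GC-richest genes by a median of 0.20, 0.00768 and -0.21. In knockdown cells with DMSO JUND deviated by -0.44, -0.04 and 0.48, and those genes by -0.13, 0.0744 and 0.0473. The signs match in replicates 1 and 3 of both groups and are opposite in replicate 2 of both. With DMSO the GC-richest genes were highest in replicate 2, and JUND in replicate 3. The genes of lowest GC content had medians of -0.10, -0.0194 and 0.13 in replicates 1, 2 and 3 of knockdown cells with olaparib. In knockdown cells with DMSO they had -0.00207, -0.0943 and 0.0836. In replicate 3 with DMSO they thus lay above the GC-richest genes. In control cells the medians of the GC-richest genes stayed between -0.0516 and 0.0325. FOSL1 and FOSB have a GC content of 60.0% and 57.7%, and JUN has 56.7%. In replicates 1, 2 and 3 of knockdown cells FOSL1 deviated by 0.05, 0.08 and -0.13 with olaparib and by 0.12, 0.04 and -0.16 with DMSO. FOSB deviated by -0.10, 0.16 and -0.06 with olaparib and by 0.02, 0.03 and -0.04 with DMSO. With DMSO both had signs opposite to JUND in replicates 1 and 3. JUN, with a pooled SD of 0.15 at percentile 94.3 for its level, varied less than JUNB and JUND. It deviated by 0.25, -0.04 and -0.22 in replicates 1, 2 and 3 of knockdown cells with olaparib. With DMSO it deviated by -0.15, 0.0027 and 0.14 there. The part of these deviations in the JUN, JUNB and JUND results was not tested beyond offsets for GC content, an alternative chosen after seeing the data.

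With offsets for GC content the knockdown libraries lay closer together. JUND then stood at 50.5, 42.6 and 38.3 RPKM in knockdown cells with olaparib, at 34.6, 35.3 and 47.2 RPKM in knockdown cells with DMSO, and between 35.1 and 39.6 RPKM in the 6 control libraries. JUNB stood at 64.3, 57.0 and 45.9 RPKM in knockdown cells with olaparib and at 28.8, 33.5 and 38.3 RPKM in knockdown cells with DMSO, groups that no longer overlapped. The log2 fold change of JUNB with olaparib in knockdown cells was then 0.73 (SE 0.122, edgeR adjusted p = 0.000777), and without replicate 3 of knockdown cells with olaparib, and no offsets, it was also 0.73 (edgeR adjusted p = 0.0104). The authors' deposited table lists this difference at 0.54 with a false discovery rate of 0.00570, the only entry of 42 on the members that fell on the other side of 0.05. With knockdown in DMSO the offsets gave 0.04 for JUND (edgeR adjusted p = 0.843) and 0.12 for JUNB (edgeR adjusted p = 0.516).

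**Figure D4:**
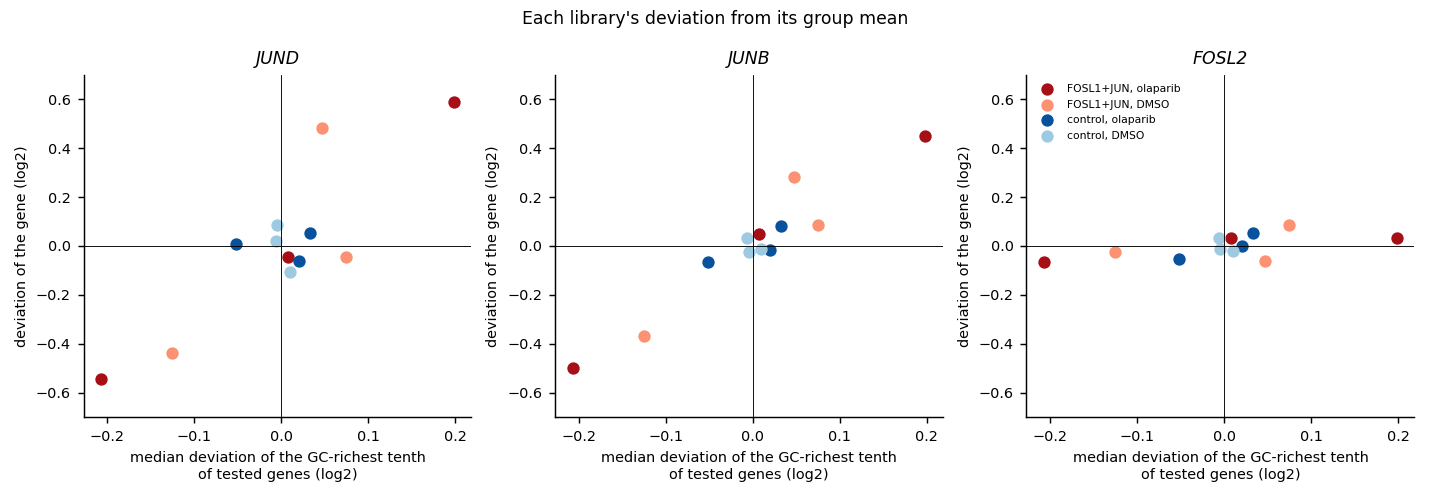
Deviation of each library from its group mean (log2, vertical axes) for JUND, JUNB and FOSL2 against the median deviation of the 1198 GC-richest genes (log2, horizontal axes), coloured by group. Knockdown libraries spread along both axes for JUND and JUNB, while control libraries sit near 0.

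Some members share their locus with other genes. In GENCODE v29 (GRCh38) FOSB overlaps ERCC1, JUNB overlaps HOOK2 and FOSL2 overlaps FLJ31356, each on the opposite strand, and FOSL2 also overlaps AC104695.3 on its own strand. The sources used here do not give the strand setting of the counting, so reads of these pairs cannot be told apart. ERCC1, a DNA repair endonuclease subunit, had log2 fold changes of -0.19 and -0.32 with knockdown in DMSO and in olaparib (edgeR adjusted p = 0.0140 and 0.000103) and of -0.04 and 0.10 with olaparib in knockdown and control cells (0.553 and 0.157). HOOK2, a microtubule-binding adaptor, did not pass in these 4 comparisons (edgeR adjusted p from 0.105 to 0.348).

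Among the other bZIP partners of FOS and JUN, 10 of 13 listed genes were tested. With knockdown in olaparib 9 fell and 1 rose (list median -0.31, against 0.01 over all genes), where 19.3% of all genes were lower. In DMSO 3 fell and none rose (median -0.10), where 15.2% of all genes were lower. ATF3, a stress-induced partner of JUN, fell by 0.68 in olaparib and by 0.72 in DMSO on the log2 scale. BATF3, a JUN partner best known in dendritic cells, is among the genes counted lower, but it averaged 0.533 and 0.598 CPM in knockdown cells with olaparib and with DMSO, against 1.18 and 1.14 CPM in control cells, and passed the filter on low counts only through the control libraries. JDP2, a repressor that pairs with JUN, was the riser in olaparib (log2 0.34, edgeR adjusted p = 0.0498). With olaparib 5 rose and none fell in each arm, where 24.1% of all genes were higher in knockdown cells and 23.6% in control cells. MAFF, a small MAF protein, rose by 0.56 in knockdown cells and by 0.76 in control cells, and ATF7 had the list's 1 call for a difference between the arms (log2 -0.43, edgeR adjusted p = 0.0157).

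Regulators that act on the promoters of FOS and JUN gave mixed counts. Of 11 tested activators 2 rose and 5 fell with knockdown in olaparib, and 3 rose and 3 fell in DMSO, where 38.3% and 29.9% of all genes were called. SRF, which binds the serum response element of FOS, fell by 1.19 in olaparib and by 0.96 in DMSO on the log2 scale, and its cofactor ELK1 by 0.91 in olaparib and by 0.46 in DMSO. With olaparib SRF rose by 0.67 in knockdown cells and by 0.90 in control cells. MEF2D, which binds the JUN promoter, rose with olaparib by 0.57 in knockdown cells and by 1.24 in control cells, with a difference between the arms of -0.68 (edgeR adjusted p = 0.000219). With olaparib 3 activators rose and 2 fell in knockdown cells, and 6 rose and 2 fell in control cells, where 48.0% and 46.8% of all genes were called.

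Of 18 tested kinases and GTPases on the MAP kinase routes that signal to AP-1, 1 rose and 4 fell with knockdown in olaparib, and 1 rose and 1 fell in DMSO. Over all genes 38.3% and 29.9% were called in these comparisons, and these counts are no result about the kinases. RPS6KA1, the kinase RSK1, rose by 0.23 in olaparib and by 0.36 in DMSO, and MAPK3, the kinase ERK1, fell by 0.31 in olaparib. With olaparib 2 rose and 4 fell in each arm, where 48.0% of all genes were called in knockdown cells and 46.8% in control cells, with BRAF up by 0.57 in knockdown cells and by 0.50 in control cells. For the difference between the arms edgeR called 0 of the 18, with 3 at an unadjusted p below 0.05, and DESeq2 called 0.

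Factors that set the turnover of FOS and JUN proteins and RNAs numbered 10. FBXW7, which marks JUN protein for degradation, rose by 0.87 with knockdown in olaparib and by 0.42 in DMSO, and fell by 0.39 with olaparib in control cells. ZFP36, which speeds decay of RNAs with AU-rich elements such as that of FOS, fell by 0.94 and 0.36 with knockdown in olaparib and in DMSO, and rose by 0.83 and 1.42 with olaparib in knockdown and control cells. With knockdown 1 rose and 3 fell in olaparib and 1 rose and 2 fell in DMSO, near the 38.3% and 29.9% of all genes called. With olaparib 4 rose and 1 fell in knockdown cells and 3 rose and 3 fell in control cells, where 48.0% and 46.8% of all genes were called.

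Other immediate-early genes respond to the same signals as FOS and JUNB. Of 24 tested, 16 rose and 3 fell with olaparib in knockdown cells (median 0.47), where 24.1% of all genes were higher and 24.0% lower. In control cells 16 rose and 1 fell (median 0.82), where 23.6% of all genes were higher and 23.2% lower. NR4A1 and NR4A2, orphan nuclear receptors, rose by 1.29 and 1.30 in knockdown cells and by 1.91 and 2.08 in control cells. With knockdown 2 rose and 16 fell in olaparib (median -0.40) and 2 rose and 11 fell in DMSO (median -0.11), where 19.3% and 15.2% of all genes were lower. GEM, a small GTPase, fell by 1.68 in olaparib and by 0.91 in DMSO. EGR3, a zinc finger factor counted lower, averaged 0.268 and 0.298 CPM in knockdown cells with olaparib and with DMSO, against 1.27 and 1.56 CPM in control cells, and passed the filter only through the control libraries. BTG2, an antiproliferative gene counted higher, was also near the filter, at 1.803 and 2.58 CPM in those knockdown groups against 0.790 and 1.03 CPM in control cells. ARC, counted higher with olaparib in both arms and lower with knockdown in both treatments, was near the filter too. It averaged 1.10 and 0.439 CPM in knockdown cells with olaparib and with DMSO, against 3.89 and 0.863 CPM in control cells. For the difference between the arms 10 were called, all lower, where 2.85% of all genes were lower, led by DUSP1, a phosphatase of MAP kinases, at -0.999 (edgeR adjusted p = 4.03e-05).

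Described targets of AP-1 and FRA-1 made up the last list. Of 23 tested, 1 rose and 15 fell with knockdown in olaparib (median -0.37), where 19.3% of all genes were lower, and 2 rose and 12 fell in DMSO (median -0.24), where 15.2% of all genes were lower. MMP1, an interstitial collagenase, fell by 1.21 in olaparib and by 1.48 in DMSO, and HBEGF, a ligand of the EGF receptor, by 1.02 in olaparib and by 0.83 in DMSO. CCND1, which encodes cyclin D1, rose by 0.71 in olaparib and by 0.70 in DMSO. With olaparib 12 rose and 4 fell in knockdown cells, and 17 rose and 1 fell in control cells, where 24.1% and 23.6% of all genes were higher, among them the cytokine LIF (1.39 in knockdown and 1.42 in control cells). The growth factor AREG, counted higher in both arms, averaged 1.56 CPM with olaparib and 0.472 CPM with DMSO in knockdown cells, and 2.13 and 0.717 CPM in control cells, and passed the filter only through the olaparib libraries. Some genes stand in more than 1 of these lists, such as SRF, ATF3, ZFP36 and DUSP1.

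The genes whose levels ran most alike over the 12 libraries differed between members. Pearson's r on log2 CPM, over 9373 genes with a mean of at least 3, is given as a description, since the points share the design and the libraries. MYC ran closest to FOSL2 (r = 0.997), followed by ZYX, a focal adhesion protein (0.995), and HRCT1 (0.994). MYC fell with knockdown by 0.91 in olaparib and by 0.51 in DMSO, and rose with olaparib by 1.16 in knockdown cells and by 1.55 in control cells. Nearest to FOS were GATA2 and SPRY4 (both 0.983) and HOXC11 (0.980), and nearest to FOSB were FOXJ2 (0.986), CNN2 and PCIF1 (both 0.972). FOSL1 had FRMD4A, PIP4K2A and IGF2BP2 (all 0.986), and JUN had TMEM184B (0.983), SDC4 and ACTB (both 0.980). CEBPB, a single-exon bZIP gene, was nearest to JUNB (0.986), then UBALD1 (0.967) and ZNF598 (0.961). JUND had TLNRD1 (0.960), ANKRD9 (0.948) and FBRSL1 (0.946).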

How the data were processed

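RNA was measured in 12 libraries, in 4 groups taken from the sample titles. The authors deposited a sheet of 27046 rows that holds raw counts per library beside Entrez number, symbol and gene length, per the file headers. Their own comparisons, log2 fold changes with false discovery rates (a p-value column), were deposited as well, and the rescaled count sheets were not used here. The submitters' processing notes name bcl2fastq 2.20.0.422. No aligner, counting tool, genome build or strand setting is given in the sources used here.

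Rows without a symbol numbered 51, held 0.00223% to 0.00311% of a library's counts, and were left out. Genes with more than 1 CPM in at least 3 libraries were tested. In R 4.3.3, edgeR 4.0.16 fitted a robust quasi-likelihood model with TMM factors to all 12 libraries at once (8 residual degrees of freedom, biological coefficient of variation 6.1%). P-values were adjusted by the Benjamini-Hochberg method over all genes within each contrast. The interaction is the olaparib effect in knockdown cells minus that in control cells. RPKM used the deposited lengths. FOS and JUN pools are sums of RPKM, with no test. GC content was that of the longest GENCODE v29 transcript of each Entrez gene, known for 98.8% of tested genes. The model was run on simulated data with the same spread for every gene and group. That simulation does not cover the wide spread of JUNB and JUND in knockdown libraries.

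The 7 members are named in every contrast, along with up to 4 called genes of each list with the largest change and the 3 genes most like each member. The members, the lists and the rules were chosen with earlier results of these data known. Genes named for their overlap with a member were chosen later. Alternatives were DESeq2 1.42.0 size factors and its Wald test, library totals, other filters, a replicate block, only the groups compared, thinned counts and leaving out each library. GC offsets and a knockdown arm reduced to its second replicate were added after seeing the data.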

Additional observations from a re-analysis of the deposited data

Results flagged for a closer look

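The olaparib effect on FOSL1 differed between the arms by the interaction test. It was -0.32 on the log2 scale in knockdown cells and 0.81 in control cells, a difference of -1.14 (edgeR adjusted p = 1.89e-05). Without offsets for GC content every library of each arm lay on the side its arm's value gives. With these offsets the value in knockdown cells was -0.19 (edgeR adjusted p = 0.0427) and the difference was -0.98. The olaparib and DMSO libraries of knockdown cells then overlapped.

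The olaparib effect on JUN also differed by that test, with -0.58 in knockdown cells and -0.00318 in control cells, a difference of -0.57 (edgeR adjusted p = 0.0267). It passed in 11 of 21 alternatives, with an adjusted p of up to 0.0794, whereas the FOSL1 difference passed in 21 of 21.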

How the results depend on the processing

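Over the 42 results on single members and their 916 alternatives, 887 kept their side of the threshold, 20 lost the call, 9 gained it and 0 reversed a call. Direction was compared only where a call was made, so results without a call could change sign among the 887. FOSB with knockdown in DMSO, for example, ran from -0.22 to 0.03 (log2) when each library was left out. The number of members called for the difference between the arms was 1 in place of 2 with no filter on low counts, with the replicate block and with GC content offsets, and 1 to 2 when each library was left out. The number of genes called for that difference was 689, between 292 and 1130 when each library was left out, and 1472 with the knockdown arm reduced to replicate 2. Without division by gene length the log2 ratio of the FOS pool was -0.61 in place of -0.78 for knockdown in DMSO, -0.92 in place of -1.20 for knockdown in olaparib, 0.63 in place of 0.48 for olaparib in knockdown cells, and 0.0166 in place of -0.30 for knockdown with olaparib against control with DMSO. With library totals the FOS pool gave -1.10 for knockdown in olaparib and 0.80 for olaparib in control cells, the FOS pool without FOSL1 -0.37 and 0.90, and for olaparib in control cells the JUN pool gave 0.15 and the JUN pool without JUN 0.31. The cause was not tested. FOSB with olaparib in knockdown cells was also lost with thinned counts (edgeR adjusted p = 0.0619), and JUNB there was gained with DESeq2 (adjusted p = 0.0397). With the knockdown arm reduced to replicate 2, whose lone library is assumed to vary like the control groups, FOS lost the call for knockdown in olaparib (edgeR adjusted p = 0.122) and JUNB gained the call for knockdown in DMSO (edgeR adjusted p = 0.000569) and for the difference between the arms (edgeR adjusted p = 0.0111). Replicate numbers did not pair the libraries: of 18 same-numbered pairs 2 had a correlation of deviations above 0.1 (from -0.27 to 0.196), and 2 libraries correlated best with their own number. Under the replicate block the call of JUN for the difference between the arms was lost (edgeR adjusted p = 0.0595), and the genes called there numbered 609. The spread between knockdown libraries limits what can be said of JUNB and JUND, and to a lesser degree of JUN.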
